A study of Drosophila melanogaster with 2 samples.

Results

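Of the 2876 peaks that passed the authors' reproducibility threshold on the dm6 build, 299 (10.4%, 95% Wilson interval 9.33 to 11.6%) had an intergenic summit. A summit, the base that the peak list marks as the highest point of a peak, was called intergenic when it lay outside every protein-coding gene of Ensembl release 115 and more than 500 bp from every protein-coding transcript start. The remaining peaks served for comparison. They were 1856 promoter peaks, with the summit within 500 bp of such a start, and 721 genic peaks, with the summit inside a gene and farther than 500 bp from a start. All peaks came from chromatin immunoprecipitation and sequencing of whole Drosophila melanogaster embryos of pooled sexes, collected from 0 to 24 hours of development. The flies were a transgenic line with an insertion that carries zld (vielfaltig, vfl) joined at its C-terminal end to GFP. The sample descriptions name an antibody against GFP, whereas the labels list the antibody as vfl. There was 1 group, vfl-GFP embryos, with 2 biological replicates numbered 2 and 3, so peaks and sequences were compared and conditions were not. Such embryos hold all cell types and stages at once, and no control was analysed here. Read depth is unknown.

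Zelda, the zinc finger protein that zld encodes, is a pioneer factor: it binds sites that are still packed in nucleosomes and helps other regulators reach early enhancers. Its textbook site is CAGGTAG, and a small family of related words is also bound. Intergenic sequence of the fly holds many of the enhancers that drive developmental genes, some of them far from the promoter they act on. It also holds insulator sites and the promoters of noncoding RNAs.

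The sequences below, read from the NCBI Release 6 assembly on its forward strand, show some of the strongest members and the words that the results turn on. The first, with a signal of 662, the highest of all members, is shown with 50 bases to each side of the summit. The other 4, with 100 bases to each side, are among the 6 strongest members and hold words found more often at these summits than in their flanks, which are in capitals.
Strongest member, between CG4004 and Paics, chrX:12751391-12751491: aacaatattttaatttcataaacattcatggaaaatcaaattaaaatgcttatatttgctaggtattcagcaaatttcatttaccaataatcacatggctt
Second member of the same stretch, chrX:12752277-12752477: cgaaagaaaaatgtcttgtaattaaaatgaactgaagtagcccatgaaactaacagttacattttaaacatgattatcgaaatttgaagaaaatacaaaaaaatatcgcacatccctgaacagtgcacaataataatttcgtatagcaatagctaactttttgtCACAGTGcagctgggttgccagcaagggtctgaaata
Member upstream of eEF1gamma, chr3R:29214363-29214563: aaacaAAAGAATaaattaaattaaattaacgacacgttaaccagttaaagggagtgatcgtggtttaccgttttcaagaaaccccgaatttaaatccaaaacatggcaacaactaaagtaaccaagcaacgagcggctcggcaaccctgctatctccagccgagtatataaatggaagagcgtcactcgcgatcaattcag
Member upstream of tara, chr3R:16222365-16222565: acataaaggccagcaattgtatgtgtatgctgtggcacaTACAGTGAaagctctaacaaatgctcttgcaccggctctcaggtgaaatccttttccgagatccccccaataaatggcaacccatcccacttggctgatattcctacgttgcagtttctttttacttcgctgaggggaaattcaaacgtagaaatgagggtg
Member between CG17896 and CG17778, chrX:493910-494110: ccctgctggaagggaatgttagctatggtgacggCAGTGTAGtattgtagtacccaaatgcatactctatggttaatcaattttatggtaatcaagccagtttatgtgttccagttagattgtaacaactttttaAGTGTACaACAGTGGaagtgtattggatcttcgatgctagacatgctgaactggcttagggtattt
None of these 5 windows held CAGGTAG. The first is rich in A and T and held none of the words in capitals elsewhere.

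CAGGTAG lay in 15 of the 299 members. The sequences of 4 of these follow because the textbook site is at their centre or near it; CAGGTAG or its reverse complement CTACCTG is in capitals.
Second member upstream of tara, chr3R:16224401-16224601: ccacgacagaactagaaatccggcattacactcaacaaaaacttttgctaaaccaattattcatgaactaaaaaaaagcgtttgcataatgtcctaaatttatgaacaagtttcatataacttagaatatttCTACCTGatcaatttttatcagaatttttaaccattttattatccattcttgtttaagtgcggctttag
Member between Glut3 and abd-A, chr3R:16798787-16798987: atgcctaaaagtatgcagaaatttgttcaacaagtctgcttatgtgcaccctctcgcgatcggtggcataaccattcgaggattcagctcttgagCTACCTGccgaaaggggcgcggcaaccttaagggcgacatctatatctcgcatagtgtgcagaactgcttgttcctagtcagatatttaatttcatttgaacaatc
Member between CG9300 and Shal, chr3L:19556780-19556980: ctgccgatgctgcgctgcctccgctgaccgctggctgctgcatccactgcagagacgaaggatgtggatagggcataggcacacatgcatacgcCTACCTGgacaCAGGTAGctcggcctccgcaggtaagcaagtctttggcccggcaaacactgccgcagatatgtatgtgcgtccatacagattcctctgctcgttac
Member upstream of SoxN, chr2L:8809964-8810164: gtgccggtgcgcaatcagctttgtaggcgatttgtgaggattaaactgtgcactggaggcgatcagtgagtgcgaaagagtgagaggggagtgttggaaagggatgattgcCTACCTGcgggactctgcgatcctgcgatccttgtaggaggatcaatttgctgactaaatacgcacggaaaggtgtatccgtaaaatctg
The window between CG9300 and Shal held 2 copies. The next sequence holds AGGTGGCG, the core of the site of the insulator protein CTCF, in capitals as its reverse complement CGCCACCT.
Member between jp and brwl, chr2L:9567413-9567613: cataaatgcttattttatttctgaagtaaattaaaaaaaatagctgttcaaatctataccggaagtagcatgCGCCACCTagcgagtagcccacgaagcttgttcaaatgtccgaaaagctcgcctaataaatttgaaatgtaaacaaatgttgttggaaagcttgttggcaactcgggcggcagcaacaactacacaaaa
The last one lies at the start of a gene for U1, the small nuclear RNA that pairs with the 5′ end of introns, with the Zelda family word CAGGTAA in capitals.
Member at snRNA:U1:95Ca, chr3R:23859597-23859697: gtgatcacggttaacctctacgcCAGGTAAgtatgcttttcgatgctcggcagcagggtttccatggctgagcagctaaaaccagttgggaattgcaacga
The gene snRNA:U1:95Ca runs on the minus strand of 3R from 23859467 to 23859630, and the word covers bases 5 to 11 of its transcript. This occurrence is thus part of the RNA itself, the stretch of U1 that pairs with splice sites.

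The strongest members stood beside genes of different kinds, and several shared a stretch of DNA. The signal, the value that the authors give each peak, ranged over the members from 61.9 to 662, with a median of 83.2 and quartiles of 68.9 and 114. The highest member lay at X position 12751441 between CG4004 and Paics, a gene of purine synthesis, 426 bp from the start of the noncoding RNA lncRNA:CR44619. It had a signal of 409.6 in replicate 2, where it ranked 13, and of 259 in replicate 3, where it ranked 10. The next, at 12752377 in the same stretch, had a pooled signal of 446 and ranks of 40 and 25 in replicates 2 and 3. Both were thus near the top of each replicate's list of 30000 peaks.

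The third was at 3R position 29214463, 5709 bp upstream of eEF1gamma, a translation elongation factor gene, and 99 bp from the start of lncRNA:CR31044. Its pooled signal was 438, and it had 267.5 in replicate 2 and 171 in replicate 3. The fourth, with signal 431, lay at 2R position 13035358 in the stretch that separates Su(z)2, a Polycomb group gene, from CG13323. It had 279 in replicate 2 and 153 in replicate 3. The fifth, with signal 399.7, was at 3R position 16222465, 3186 bp upstream of tara, which encodes a transcriptional co-regulator, and had 268.5 and 133 in replicates 2 and 3. In all 5 the value of replicate 2 was the higher, but the scaling between libraries is not given, so only ranks can be set side by side.

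The sixth, with signal 380.2, was at X position 494010, 515 bp upstream of CG17896, and ranked 49 and 63 in replicates 2 and 3. Of the members, this was also the nearest to a protein-coding start. A pair of summits upstream of chinmo, a gene of neuronal timing, followed at 2L positions 1638694 (signal 344.5) and 1638893 (signal 327); they lie 199 bp apart and matched a single peak in each replicate, at ranks 65 and 84. A summit between the gene ends of blw and CycB, the gene of cyclin B, had signal 329.5 at 2R position 22802975. A summit at 2L position 14024080, signal 259.8, lay 19 bp from the start of lncRNA:CR31840 between NimC3 and hll. The member at 3R position 21520382, signal 258, was 546 bp upstream of sp3, in the stretch that begins with the homeobox gene C15.

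The 9 remaining members among the 20 strongest had signals from 194 to 216, apart from the CAGGTAG member upstream of tara at 239.5. They lay beside Cyp9f2, Psc, jp, Boot, stck, CG3149, Optix and Shal. Psc is a core Polycomb group gene, Optix a homeobox gene of head and eye development, and Shal a potassium channel gene. None of the 20 ranked below 361 in replicate 2 or below 506 in replicate 3. Within 500 bp of a noncoding start lay 5 of the 20, and 5 were within 1000 bp of a protein-coding start.

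The members were weaker than promoter peaks, and a difference in strength from genic peaks was not detected. Of the 299 members 128 (42.8%, interval 37.3 to 48.5%) were among the 1438 strongest thresholded peaks, against 53.3% of promoter peaks (Fisher's exact test over peaks, adjusted p = 0.00309 over 10 comparisons). Against 44.5% of genic peaks Fisher's exact test did not pass (adjusted p = 0.693). Median signals were 83.2 for members, 85.1 for genic and 92.1 for promoter peaks. Among the 287 strongest peaks were 20 members (6.69%), compared with 11.5% of promoter peaks (Fisher's exact test, adjusted p = 0.0299) and 7.49% of genic peaks (adjusted p = 0.693).

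Replicate 3 held a smaller share of the members than of the promoter peaks among its strongest peaks. A relaxed peak lay within 200 bp of 295 of the 299 members in both replicates, as of 2851 of all 2876 thresholded peaks; it was missing in replicate 2 for 1 member and in replicate 3 for 3. Of the members 252 (84.3%) were among the 2876 strongest peaks of replicate 2, and for promoter peaks this was 87.0% (Fisher's exact test, adjusted p = 0.288). For replicate 3 the shares were 71.6% and 81.2% (Fisher's exact test, adjusted p = 0.00121). Against genic peaks neither replicate gave a difference that passed. Their shares were 85.4% in replicate 2 (Fisher's exact test, adjusted p = 0.693) and 75.6% in replicate 3 (Fisher's exact test, adjusted p = 0.288). In both replicates at once, 171 members (57.2%, interval 51.5 to 62.7%) were among the strongest, against 70.0% of promoter peaks (Fisher's exact test, adjusted p = 1.71e-04) and 62.8% of genic peaks (adjusted p = 0.209). The signals of the 295 members in the replicates had a Spearman rho of 0.455, given as a description, since the members were chosen on the pooled signal. Where members lie close together they can match the same replicate peak, which held for 10 members in replicate 2 and for 8 in replicate 3.

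**Figure D1:**
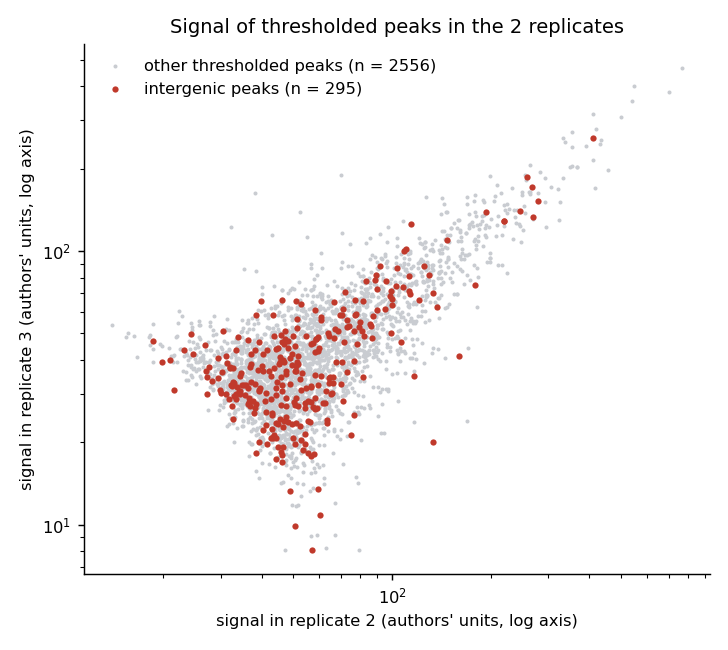
Signal of each thresholded peak in replicate 2 (horizontal, log axis, authors' units) and replicate 3 (vertical, log axis, authors' units), with the 295 intergenic peaks found in both in red and other thresholded peaks in grey. The strongest members lie along the main band, and a tail with low signal in replicate 3 extends downward, among members and other peaks alike.

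The widest rank differences belonged to weak members. A summit between l(2)k09913 and Fib, the fibrillarin gene, at 2R position 23072462 ranked 9320 in replicate 2 and 987 in replicate 3. Next to it in this order were summits by Mkp3 (8259 and 1485), pnt (7335 and 1434), Su(z)2 (6149 and 1172) and robo1 (5551 and 879), with replicate 2 first. In the other direction, a summit between CG43402 and CG31928 at 2L position 1462233 ranked 1240 in replicate 2 and 29444 in replicate 3. It was followed by summits by peb (1565 and 22111), CG6163 (1104 and 19026), muc (1147 and 12787) and glec (1674 and 13285). These 10 members had pooled signals from 61.9 to 72.4, below the members' median. No member ranked below 10000 in replicate 2, while 5 did so in replicate 3.

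The members lay on all major arms, mostly within a few kb of a gene start. Arm 2L held 72, 3L held 67, 2R held 58, 3R held 53, X held 47 and the fourth chromosome 2. Over the 39.9 Mb of intergenic sequence more than 500 bp from a start, this came to 7.49 members per Mb, from 6.31 on 3R to 9.65 on 2L. The median distance to the nearest protein-coding start was 3252 bp, with quartiles of 1382 and 7886 bp and a maximum of 44468 bp. Between 500 and 1000 bp from a start were 47 members, and 61 (20.4%) were farther than 10000 bp. Of the members 188 (62.9%) lay on the upstream side of the nearest start, and 37 (12.4%) were within 500 bp of the end of a gene. The rule leaves out gene bodies, which lie downstream of starts, so the upstream side is favoured by the choice of members. The same shares of the eligible sequence are not given here, so neither count shows a preference.

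Divergent stretches, with a gene start at both ends, held 95 members (31.8%) and 23.8% of the eligible sequence, which gave 10.01 per Mb. Convergent stretches, with gene ends on both sides, held 65 members or 7.43 per Mb, and stretches between genes on the same strand held 139 or 7.01 per Mb. The density also differed with the length of the stretch. It was 29.6 per Mb in stretches of 1000 to 2000 bp (24 members), 22.7 in those of 2000 to 5000 bp (58 members) and 7.62 in those of 20000 to 50000 bp (90 members). In the 113 stretches longer than 50000 bp it was 1.49 per Mb (17 members). These densities, and those by arm, are descriptions, and no test was run on them. The sequence counted was not limited to parts where reads can be placed uniquely, so differences in density may not be differences in binding.

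**Figure D2:**
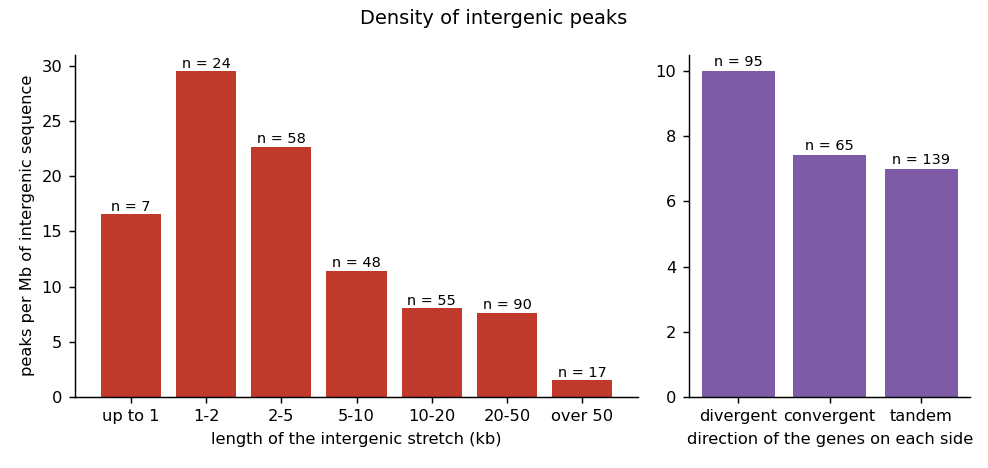
Members per Mb of intergenic sequence more than 500 bp from a protein-coding start, by length of the stretch between genes (left, kb) and by direction of the genes on each side (right), with the number of members above each bar. Stretches of 1000 to 5000 bp and divergent stretches had the highest bars.

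Some stretches held several members. The 299 members lay in 224 stretches, of which 180 held 1 member, 30 held 2 and 14 held 3 or more, with 59 members in those 14. The richest was the 37097 bp between RFeSP and chinmo on 2L, with 9 members spread over 28717 bp and signals from 64.7 to 344.5. The stretch of 7250 bp between CG4004 and Paics held 5, with signals of 662, 446, 149, 81.4 and 88.6 in the order of their positions. On 3L, 5 members lay between CG44362 and CG7560 (signals 65.1 to 127).

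Further stretches held 3 or 4 members each. Upstream of tara were 4 members, with signals of 80.6, 399.7, 239.5 and 62.2 in order toward the gene. The stretch that ends at Psc held 4 within 1337 bp, led by a signal of 213.5, and that between dnc, a cAMP phosphodiesterase gene, and Myc, the growth regulator, held 4 with signals up to 114. The others with 4 were CG42808 to CG6191 (81.0 to 118) and CG6168 to CG6163 (63.9 to 186). Those with 3 were CG16721 to Act5C, a cytoplasmic actin gene, Ir68a to scyl, an inhibitor of growth signalling, NijA to CG43245, hng3 to CG13898, and noc, a zinc finger gene, to CG33648. Between Ir68a and scyl 2 of 3 members held CAGGTAG, and all 3 were weak, with signals of 62.7 to 64.9.

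**Figure D3:**
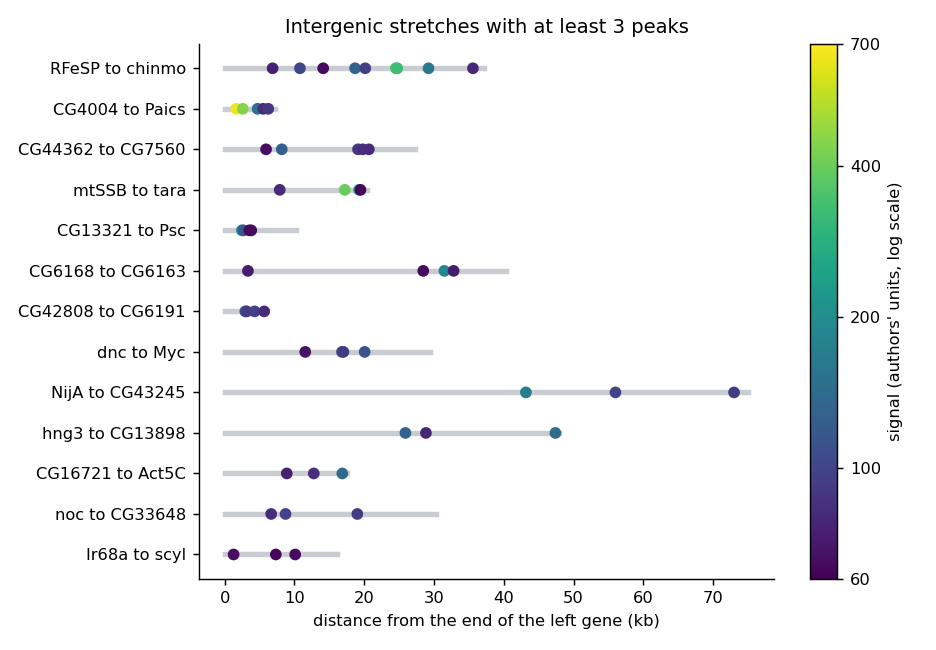
Intergenic stretches with at least 3 members (13 of 14 drawn), shown as grey bars from the end of the left gene (0 kb) to the right gene, with each member as a point coloured by its signal (log colour scale, authors' units). Members of the stretch before chinmo spread over 28717 bp, while those before Psc lie within 1337 bp.

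CAGGTAG was found at few members, and at more of them than of promoter peaks. Within 100 bp of the summit it lay in 15 of 299 members (5.02%, interval 3.06 to 8.11%), in 25 of 1856 promoter peaks (1.35%) and in 18 of 721 genic peaks (2.50%). The excess over promoter peaks was 3.72-fold and passed (Fisher's exact test, adjusted p = 8.78e-04 over 18 words). It was lost when only the strongest member of each of the 224 stretches was kept (2.65-fold, 8 with the word, Fisher's exact test adjusted p = 0.0917). The 2.01-fold excess over genic peaks did not pass (Fisher's exact test, adjusted p = 0.326). In flanks centred 1000 bp to each side of the members the word lay in 8 of 598 (1.34%), a ratio of 3.75. The exact McNemar test, with 1 flank per member, gave p = 0.0309 and an adjusted p of 0.231 over 18 words. Genic peaks also held the word more often than their flanks (1.11%), at a ratio of 2.25. That difference did not pass either (exact McNemar adjusted p = 0.371).

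The lists of the single replicates gave different calls, and the difference between them was not tested. Among the 2876 strongest peaks of replicate 3 alone, 19 of 282 intergenic peaks held CAGGTAG, which was 5.67 percentage points above their flanks (exact McNemar adjusted p = 7.21e-04). For replicate 2 alone it was 11 of 301, which was 2.66 points above (exact McNemar adjusted p = 0.657). All 15 members with the word had a relaxed peak in both replicates, and 11 of them (73.3%) ranked higher in replicate 3 than in replicate 2. Of the 280 other members with both peaks, 128 (45.7%) did. The difference between these shares was not tested, since it was noticed in the data.

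The members with CAGGTAG spanned the strength order, with fewest among the strongest. Their median signal was 75.9, against 83.6 for the others. Among the 75 strongest members 1 held the word, among those ranked 76 to 150 it was 5, among ranks 151 to 225 it was 2 and among ranks 226 to 299 it was 7. The word was centred within 50 bp of the summit in 12 of the 15, at a median of 19 bp. Their windows had a median GC content of 45.3%, compared with 36.8% for the others, and their median distance to a start was 6787 bp, compared with 3198 bp.

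The strongest, at 3R position 16224501 and 1150 bp upstream of tara, had signal 239.5, with 114 in replicate 2 (rank 286) and 125 in replicate 3 (rank 92). After it came a summit by hbs, a gene of myoblast fusion, at 2R position 15054414 (signal 95.7, ranks 1524 and 778). The summit at 3R position 16798887, beside the homeotic gene abd-A, had signal 94.0 and ranked 962 and 2676. Its other neighbour was Glut3, and that of the summit by hbs was CG33467. Next were summits between Sox15 and RpS23, a ribosomal protein gene (signal 92.4), CG9300 and Shal (86.5), ND-B14.7 and shg, the E-cadherin gene (84.2), Ppa and robo1, an axon guidance receptor gene (82.1), and CG42710 and SoxN, a neural Sox gene (75.9). SoxN had a second on its other side, toward CG32986 (65.7), followed by that between CG44569 and Obp56i (65.4). The stretch between the Notch targets E(spl)m3-HLH and E(spl)m4-BFM held 1 (65.4), that between Ir68a and scyl 2 (64.9 and 62.7), Su(z)2 to CG13323 held 1 (64.8) and CG6168 to CG6163 held 1 (63.9). The relative TAGGTAG lay in 4 members. The words CAGGTAA (7 members), CAGGCAG (5 members) and CAGGTAT (4 members) belong to the same family. At least 1 of these 5 words was in 30 members (10.03%), 5.85% of flanks, 9.43% of genic and 7.44% of promoter peaks.

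The words of CTCF and Su(Hw) were more frequent at members than at promoter peaks, and those of DREF and M1BP were scarcer. AGGTGGCG, the CTCF core, lay in 10 members (3.34%) and 11 promoter peaks (0.593%), a ratio of 5.64 (Fisher's exact test, adjusted p = 8.80e-04). The call was lost with members farther than 1000 or 2000 bp from a start, with all annotated genes, with windows of 50 bp and within the 1438 strongest peaks (ratios 2.75 to 3.46, Fisher's exact test adjusted p from 0.0681 to 0.550). Against flanks (0.836%) the CTCF word did not pass (exact McNemar p = 0.0386, adjusted p = 0.231), nor against genic peaks (1.11%, Fisher's exact test adjusted p = 0.326). TGCATAC, part of the site of the insulator protein Su(Hw), lay in 18 members (6.02%) and in 2.59% of promoter peaks (Fisher's exact test, adjusted p = 0.0116). This call, at a ratio of 2.33, was lost in 8 of 11 alternatives (ratios 1.35 to 2.70, Fisher's exact test adjusted p from 0.0639 to 0.872). They were each replicate's own peaks, the limit of 1000 bp, all annotated genes, the 1438 strongest peaks, peak midpoints, windows of 50 bp and 1 member per stretch. Against genic peaks (4.30%) the word did not pass either (Fisher's exact test, adjusted p = 0.783), nor against flanks (2.17%, exact McNemar adjusted p = 0.666).

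TATCGATA, the site of DREF with the core of BEAF-32, was in 1 member (0.334%) and in 188 promoter peaks (10.1%, Fisher's exact test adjusted p = 1.17e-10). GGTCACAC, the site of the promoter factor M1BP, was in 2 members and in 98 promoter peaks (5.28%, Fisher's exact test adjusted p = 6.92e-04). This call was lost within the 1438 strongest peaks (Fisher's exact test, adjusted p = 0.595). At genic peaks each of these words lay in 3 of 721. In the members' flanks each lay in 0.334%, so a scarcity at members against their own flanks was not seen. In the flanks of promoter peaks the DREF word lay in 0.404% and the M1BP word in 0.700%. For the TATA box, TATAAA, a difference between members (27.1%) and promoter peaks (29.9%) was not detected (Fisher's exact test, adjusted p = 0.764). Promoters without a peak were not compared. Over the 18 words 5 passed against promoter peaks and 0 against genic peaks, where 1 had an unadjusted p under 0.05. Against flanks 0 passed the exact McNemar test and 3 had an unadjusted p under 0.05, namely the textbook Zelda word, the CTCF core and the Pho core. Fisher's exact test on both flanks called 1, CAGGTAG (adjusted p = 0.0456). GCCAT, the core of the site of the Polycomb group protein Pho, was scarcer at members (29.8%) than in flanks (35.1%, exact McNemar p = 0.0184, adjusted p = 0.231). The other classes had the same direction. Genic summits held it in 26.1% against 32.1% of their flanks (exact McNemar adjusted p = 0.0675). For promoter summits it was 30.55% against 34.6% (exact McNemar adjusted p = 0.00258).

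The 3 strongest members with the CTCF word were among the 20 strongest of all. They lay between jp and brwl (2L position 9567513, signal 210, ranks 328 and 161), beside Boot (2R position 9095198, signal 209, ranks 316 and 157) and upstream of CG14762 (2R position 8014403, signal 195, ranks 302 and 275). All 3 had the word within 36 bp of the summit. The other 7 had signals from 62.3 to 89.1. GAGAG, the type of word that GAGA factor binds, lay in 74 members (24.7%) and 20.1% of flanks, and the words of Bicoid (6.35%), Snail (5.69%) and Twist (8.36%) lay in 7.36%, 7.53% and 6.02% of flanks. None of these 4 passed against flanks (exact McNemar adjusted p from 0.785 to 0.940).

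**Figure D4:**
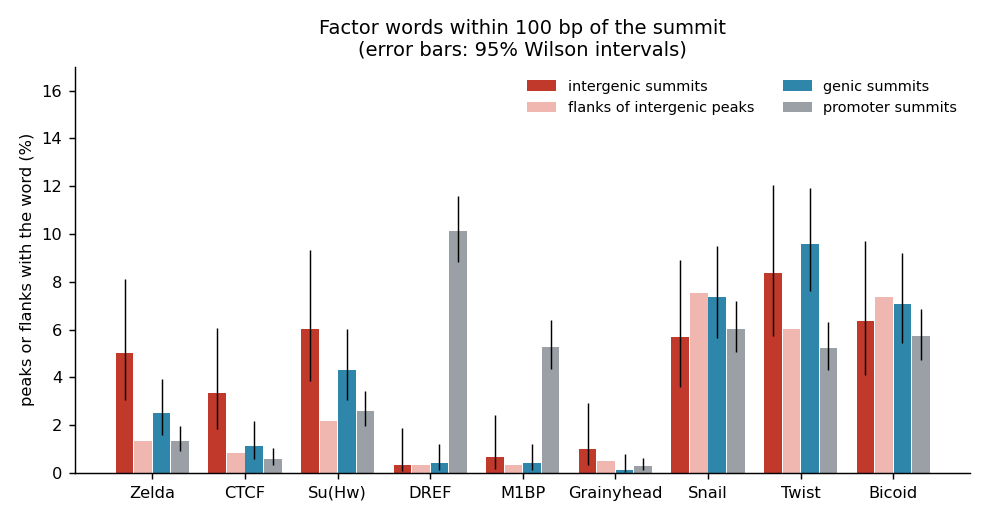
Share of intergenic (red), genic (blue) and promoter (grey) summits with a factor's word within 100 bp, with 95% Wilson intervals as error bars, and of the members' flanks (pink). The red bars of Zelda, CTCF and Su(Hw) stand above the grey ones, and DREF and M1BP words are near 0 outside promoter peaks.

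A search over all 8192 pairs of a 7-letter word and its reverse complement gave another leading group. By Fisher's exact test with adjustment over all pairs, 12 were more frequent at the members' summits than in their flanks (0.146% of those tested) and 1 was less frequent (0.0122%). ACAGTGG led, in 31 members (10.4%) and 8 of 598 flanks (1.34%, Fisher's exact test adjusted p = 1.58e-05). CACTGAG (9.37% against 1.51%) and CAGTGTA (10.7% against 2.17%) came next. CAGGTAG did not pass in this search (Fisher's exact test, adjusted p = 0.372). Of the 12, 7 held the letters CACTG on either strand, and 149 members (49.8%) and 79 of 598 flanks (13.2%) held at least 1 of the 12, which were picked for being more frequent at these summits. The exception in kind was AAAGAAT (9.37% against 2.34%), which is rich in A and T. The word that was less frequent was CAAAGGA, in 0 members (Wilson interval 0 to 1.27%) and in 27 flanks (4.52%). Summit windows had a GC content of 37.9% and flanks of 41.4%.

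The leading group was not limited to members. ACAGTGG lay in 13.9% of genic and 6.57% of promoter summits. CACTG, a core chosen after the values were seen and therefore not tested, lay in 160 members (53.5%), 54.6% of genic and 48.4% of promoter peaks, against 27.1%, 30.2% and 32.6% of their flanks. Its share was near even along the strength order of the members, with 39, 38, 39 and 44 in successive groups of 75, 75, 75 and 74. With windows of 50 bp to each side, 0 of the 8192 pairs passed by Fisher's exact test, and ACAGTGG then had a ratio of 6.67 (10 members, adjusted p = 0.627). ACAGTGG passed with the peaks of replicate 2 alone (ratio 5.78, Fisher's exact test adjusted p = 0.00210) and of replicate 3 alone (ratio 6.00, adjusted p = 0.00650). These passes are not independent support, since the word was picked at the members' summits and the lists overlap. Of the members, 252 and 214 were among the strongest peaks of replicates 2 and 3. The ratio depended on the flank: it was 7.75 with flanks 1000 bp away, 4.77 at 2000 bp and 3.26 at 500 bp. It passed each time, with the same summit windows.

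**Figure D5:**
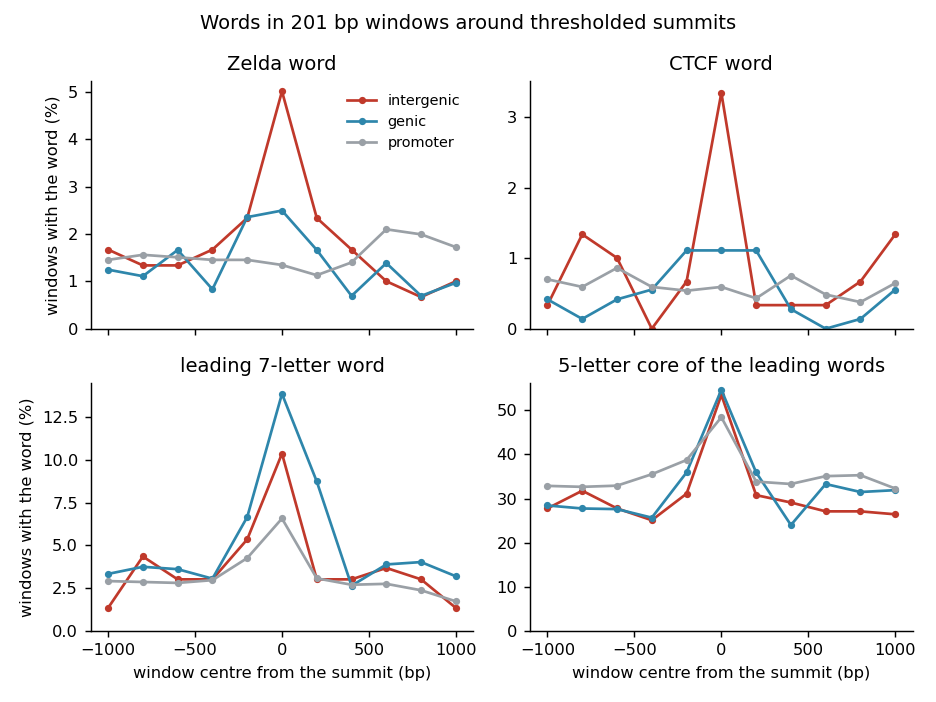
Share of 201 bp windows with the Zelda word, the CTCF word, the leading 7-letter word (ACAGTGG) and its 5-letter core (CACTG), by distance of the window's centre from the summit in bp, for intergenic (red), genic (blue) and promoter (grey) peaks. The first pair of words peaks at intergenic summits, at 5.02% and 3.34% (neither passed against flanks, exact McNemar adjusted p = 0.231). At genic summits they lay in 2.50% and 1.11% of windows, against 1.11% and 0.485% of genic flanks (neither passed, exact McNemar adjusted p = 0.371). For the Zelda word the summit window was the highest of genic peaks too. The other pair peaks at the summits of all 3 classes.

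Some members lay at starts of noncoding RNAs, which the choice of members did not exclude. Within 500 bp of an annotated noncoding start were 49 members (16.4%, interval 12.6 to 21.0%), against 11.5% of flanks and 3.47% of genic peaks; no test was run. Of the 49, 42 were at ncRNA genes, 3 at snRNA, 3 at snoRNA and 2 at tRNA genes and 1 at a pseudogene, with a member at starts of several kinds counted under each. Counting those inside a noncoding transcript too, 76 members (25.4%) were at or in one. The median signal was 80.6 at noncoding starts and 84.0 elsewhere.

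The strongest at an ncRNA gene was the highest member of all, by lncRNA:CR44619. Uhg4, a host gene of snoRNAs, had a member 75 bp from its start (2R position 9095198, signal 209). The microRNA genes mir-275 (signal 131, 431 bp) and mir-14 (62.8, 127 bp) each had a member, as had lncRNA:Hsromega, a stress RNA of nuclear speckles (76.8, 240 bp). At snRNA genes the members lay by snRNA:U1:95Ca (signal 76.4, 17 bp), snRNA:U6:96Ac, of the spliceosome (70.1, 43 bp), and snRNA:7SKa, which restrains transcription elongation (68.6, 186 bp). The strongest at a snoRNA gene was by snoRNA:185 (89.3, 24 bp), the one at a pseudogene by CR31032 (68.9, 131 bp), and the strongest at a tRNA gene by tRNA:Ser-TGA-2-1 (64.1, 119 bp). GGTTCGA, the B box of tRNA genes, lay in 2 members.

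Regulators of patterning were among the genes on each side of the members, but such genes also stand beside long stretches. Of 13968 protein-coding genes 421 (3.01%) flanked a member. Gap and head genes did so in 4 of 13 cases: slp1 and slp2, fork head genes that share a member of signal 147, btd, a head zinc finger gene (145), and ems, a head homeobox gene (79.1). Pair-rule genes did in 3 of 13, slp1, slp2 and hry, the hairy repressor gene (2 members, best signal 99.0). Segment polarity genes did in 3 of 13: ptc, the Hedgehog receptor gene (120.1), mid, a T-box gene (113), and wg, the Wnt ligand gene (72.0).

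Dorsoventral genes flanked a member in 4 of 27 cases, among them the T-box genes Doc1 and Doc2 of the amnioserosa (113), sog, a BMP antagonist gene (66.7), and peb (63.4). Of 8 homeotic genes abd-A (94.0) and Antp (68.6) did, and of 20 proneural and neuroblast genes SoxN (134). Of 24 organ regulators it was tsh (147), ems, disco (71.9), hth (67.95) and pnt (67.2). Of 14 pioneer and early chromatin genes ph-p and ph-d, paralogous Polycomb group genes with a shared member (112), and lola and psq, BTB factor genes with a shared member (97.2), flanked one. Signalling genes did in 3 of 27 and ecdysone response genes in 1 of 14 (Hr51, 119). First-wave zygotic genes (20), heat-shock genes (18) and insulator and core promoter factor genes (16) flanked none.

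The lists also differed in the length of the adjoining stretches, and the counts followed it in some lists and not in others. The median of the longest stretch beside a gene was 548 bp over all genes. It was 23454 bp for pair-rule, 18941 bp for homeotic, 15083 bp for gap and head, 11276 bp for organ, 9632 bp for segment polarity and 6909 bp for dorsoventral genes, and 2272 bp for ecdysone response, 2028 bp for first-wave, 936 bp for heat-shock and 348 bp for insulator factor genes. Signalling genes, at 13552 bp, and proneural genes, at 8147 bp, flanked a member in 3 of 27 and 1 of 20 cases, whereas pioneer and early chromatin genes, at 3632 bp, did in 4 of 14. Genes that share a member were each counted. Such pairs were ph-p and ph-d, lola and psq, Doc1 and Doc2, and wg and Wnt4. A further pair, slp1 and slp2, stood in both the gap and head and the pair-rule lists. Among the 1676 genes beside a stretch of at least 10 kb, 213 (12.7%) flanked a member. In that subset the counts were 4 of 11 for gap and head, 3 of 10 for pair-rule, 3 of 6 for segment polarity, 4 of 10 for dorsoventral, 2 of 6 for homeotic, 4 of 13 for organ and 2 of 5 for pioneer and early chromatin genes. They were 2 of 15 for signalling, 1 of 8 for proneural, 0 of 4 for first-wave, 0 of 2 for ecdysone response and 0 of 2 for heat-shock genes, at or below 13.3%. With a member given only to the gene of the nearest start within 5 kb, 167 genes (1.196%) had one, with 2 pair-rule, 2 pioneer and early chromatin, 1 gap and head, 1 organ and 1 signalling gene and 0 of the other lists. The part of stretch length in the counts was not tested further.

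Peaks on both sides of the limits of the rule are given as a description. The lowest signals of members were 62.3, 62.2, 62.2, 61.9 and 61.9, and the next intergenic peaks of the pooled list, below the authors' threshold, had 61.7, 61.6, 61.4, 61.1 and 61.0. The 3 members nearest a start stood 515, 520 and 521 bp from it, with signals of 380.2, 104.5 and 65.6. The 3 peaks just on the other side stood 499, 496 and 491 bp from it, with signals of 71.2, 81.1 and 70.7. P-values here are over peaks, which are not replicates. The intervals reflect counting error alone, as if peaks of the same stretch were independent.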

How the data were processed

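ChIP-seq peaks of vfl-GFP embryos from 2 biological replicates were analysed as deposited peak lists on dm6: a relaxed list of 30000 peaks per replicate, a pooled list and a thresholded list. Each peak carries the authors' signal value, whose scaling between libraries is not given and which was used only to rank and describe peaks. The deposited −log10 q values reached a ceiling at all thresholded peaks and could not rank them. The aligner, the peak caller and the threshold were not given in the sources used here. The thresholded peaks equal the strongest of the pooled list.

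Summits were placed against Ensembl release 115 gene models (BDGP6.54) and sequence of the NCBI Release 6 assembly, which share dm6 coordinates. Both strands were searched for words, within 100 bp of summits and in flanks centred 1000 bp away. Summits were compared with a randomly picked flank of the same peak (fixed seed) by the exact McNemar test, and classes of peaks were compared by Fisher's exact test. All tests were two-sided with Benjamini-Hochberg adjustment and a threshold of 0.05. Replicate peaks were matched within 200 bp, taking the best ranked. The statistics were tried on random intergenic places with or without CAGGTAG planted at the summit. The outcome is not given here, and the power at the share seen in the members was not examined. The members, word list and gene lists were chosen with earlier results of these data known.

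The text names the 20 strongest members, those with CAGGTAG or in stretches of 3 or more, the widest rank differences, members at the limits of the rule, and the strongest per noncoding class. Of the stretches with 3 or more members, 1 is not reported here. From each gene list it names up to 5 flanking genes. The members with the CTCF word and those at mir-275, mir-14, Hsromega and other noncoding genes were named after their values were seen. Python 3.11.15 with numpy 2.4.6, pandas 2.3.3, scipy 1.17.1 and matplotlib 3.10.9 was used.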

Additional observations from a re-analysis of the deposited data

How the results depend on the processing

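The share of intergenic summits, 10.4% in the thresholded list, was 9.81 to 10.5% with single replicates. It was 14.05%, 8.76% and 6.47% with limits of 250, 1000 and 2000 bp from a start, 7.75% with noncoding genes also counted as genes, and 8.90% in the 1438 strongest peaks. The count of words past the threshold against flanks, 0, was 0 to 1 with single replicates. It was 3 with windows of 200 bp and 0 with windows of 50 bp. It was 1, the Zelda word, with a limit of 250 bp, with flanks at 2000 bp and with Fisher's exact test on both flanks. With flanks at 500 bp it was 1, the CTCF word. With the flank of lower coordinate in every peak it was 1, the Su(Hw) word, and with that of higher coordinate it was 0. Against promoter peaks 5 words passed; 3 did with a limit of 1000 bp, with all annotated genes, with windows of 50 bp, and with 1 member per stretch, and 2 did in the 1438 strongest. Members were slightly less often in the stronger part of the list than genic peaks (42.8% against 44.5%), and the direction turned with a limit of 1000 bp (43.25% against 42.86%) and with replicate 3 alone (range 41.9 to 45.0% over the replicates). Against promoter peaks the call was lost within the 1438 strongest (46.9%, Fisher's exact test p = 0.512). The 12 words of 7 letters fell to 0 with windows of 50 bp, and were 3 to 13 with single replicates, 2 and 7 of them shared with the 12. Noncoding starts were near 7.36% of members at 200 bp and 24.7% at 1000 bp. Flanking genes numbered 421, and 167 by the nearest start within 5 kb. The cause of these changes was not tested. The flanks of lower and higher coordinate, Fisher's test on both flanks, 1 member per stretch, the alternatives for words against promoter peaks, 7-mer flanks at 500 bp and single replicates for 7-mers, noncoding starts and flanking genes were chosen after seeing the data. No paired analysis was possible because there is a single group of samples, with no second group to pair by replicate number (the McNemar test pairs a summit with a flank of its own peak). Read depth is unknown, so the lists limit what can be said of weak peaks.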
